A study of Mus musculus with 9 samples.

Results

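The mitochondrial ribosomal protein genes are nuclear genes whose symbols start with Mrpl, for the large subunit of the mitochondrial ribosome, or with Mrps, for the small subunit. They were taken here as the protein-coding genes of the deposited count table whose Entrez identifier maps to a mouse symbol of Mrpl or Mrps and a digit and without pseudogenes, a rule that uses names and no measured value. The table held 78 such genes among 27179 identifiers, of which 49 were named for the large and 29 for the small subunit. All but Mrpl36 passed the filter on low counts, which left 77, of which 48 belonged to the large and 29 to the small subunit. Mrpl36, which encodes a very short protein with a bacterial homologue, stood at 0.254, 0.189, 0.0267, 0.0518 and 0.0627 CPM (counts per 1e6 counts) in the Suz12 cKO libraries and at 0.548, 0, 1.27 and 0.337 CPM in the wild type libraries and was not tested.

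The mitochondrial ribosome translates the few messenger RNAs that mitochondrial DNA encodes, all of them for membrane subunits of the respiratory chain and the ATP synthase. Its ribosomal RNAs come from mitochondrial DNA, whereas its proteins are encoded in the nucleus, made on cytosolic ribosomes and imported. Some of the proteins descend from those of bacterial ribosomes and others exist only in mitochondria. Alveolar macrophages, phagocytes that live in the airspaces of the lung, clear surfactant lipid and debris and burn fatty acids in their mitochondria.

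Polyadenylated RNA was sequenced from alveolar macrophages that had been sorted from the lungs of C57BL/6 mice at 1 week of age. The Suz12 cKO group had 5 libraries from mice in which Suz12, part of the core of the Polycomb repressive complex that methylates histone H3, was conditionally knocked out, and the wild type group had 4 libraries without it. No treatment is given for either group. The sources used here do not give the Cre driver, the deleted exons, the sort gate, the sex of the mice or whether a library was a single mouse or a pool, so that p-values measure the spread between libraries that the series text calls biological replicates.

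Total counts were 18.6 to 45.6 M (1e6) in the Suz12 cKO libraries and 13.8 to 25.3 M in the wild type libraries. Suz12 itself averaged 16.0 ± 4.11 CPM (SD, n = 5) in Suz12 cKO and 66.6 ± 10.7 CPM (SD, n = 4) in wild type, and no library of one group reached the range of the other (edgeR's quasi-likelihood test, adjusted p = 1.69e-05, log2 fold change -2.06 with an SE of 0.18). The 8 alveolar macrophage markers were present in every library, with summed levels of 11500 to 36900 CPM in Suz12 cKO and 19600 to 56700 CPM in wild type. Of these, Marco was called higher (log2 fold change 0.54) and Car4 lower (-0.96). Markers of epithelium, fibroblasts, endothelium, neutrophils, T cells, B cells and red cells overlapped between the groups in summed level, none of their tested markers was called, no marker was at 0 in every library, and the highest sums were 344 CPM for epithelium in Suz12 cKO and 264 CPM in wild type, mostly Cdh1. Over all 12840 tested genes the fold change followed gene length. Among genes of 62 to 970 bases the median log2 fold change of Suz12 cKO over wild type was -0.42 and 39.3% of genes were called lower, and among those of 6045 to 83437 bases the median was 0.14 and 2.57% were called lower. Most mitochondrial ribosomal protein genes are short, so each member was also set against all other tested genes whose deposited length was within 10% of its own.

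The genes of this ribosome lie scattered over the genome, and nuclear genes for mitochondrial proteins are known for binding sites of the factors NRF1, GABP (an ETS factor) and YY1 near their starts. RefSeq windows from 250 bases before to 50 bases after the annotated start, on GRCm38.p6, were matched for 69 of the 78 members and gave 75 windows. The letters GCGCANGCG (NRF1), read on both strands as all motifs here, lay in 21.3% of the member windows, against 13.2% of the windows of all tested genes and 6.25% of all 32851 windows. CCGGAAG (ETS) lay in 34.7% of the member windows, against 17.9% and 8.86%. AAGATGGCG (YY1) lay in 10.7%, against 3.03% and 1.40%. The GC box GGGCGG lay in 52.0% of the member windows, against 61.5% of those of tested genes, CCAAT in 30 of 75 against 38.1%, and TATAAA in 6.67% against 7.25%. The NRF1 letters can overlap with themselves, and a match describes these letters only. Windows of members called lower in Suz12 cKO held the NRF1 letters in 9 of 40 windows and the ETS letters in 16 of 40, and windows of tested members not called held them in 7 and 10 of 34 windows. The YY1 letters lay in 2 of the 40 windows of called members and in 5 of the 34 of members not called.

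The 4 windows shown here, 5′ to 3′ along each gene, are those of the large subunit genes Mrpl14 and Mrpl33 and the small subunit gene Mrps21, whose levels differ most clearly below, and of Mrps26, whose level was not called different and whose window holds a self-overlapping pair of NRF1 matches. Capitals mark the NRF1 and ETS matches. Mrpl14 has an NRF1 match that begins just after the annotated start of its window, which lies inside the gene span, since that begins at base 45685722. Mrpl33 has an ETS match just before its start, and Mrps21 an NRF1 match 90 bases before and an ETS match 18 bases after its start. Mrps26 has an ETS match 14 bases before the start and NRF1 matches on either side of it.
Mrpl14, chr17:45686099-45686398, plus strand: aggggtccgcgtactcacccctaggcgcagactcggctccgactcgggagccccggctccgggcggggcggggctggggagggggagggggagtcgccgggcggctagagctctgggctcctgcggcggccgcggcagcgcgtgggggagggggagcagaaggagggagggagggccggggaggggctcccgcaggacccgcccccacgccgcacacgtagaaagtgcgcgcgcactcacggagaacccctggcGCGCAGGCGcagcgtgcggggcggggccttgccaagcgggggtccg
Mrpl33, chr5:31613701-31614000, plus strand: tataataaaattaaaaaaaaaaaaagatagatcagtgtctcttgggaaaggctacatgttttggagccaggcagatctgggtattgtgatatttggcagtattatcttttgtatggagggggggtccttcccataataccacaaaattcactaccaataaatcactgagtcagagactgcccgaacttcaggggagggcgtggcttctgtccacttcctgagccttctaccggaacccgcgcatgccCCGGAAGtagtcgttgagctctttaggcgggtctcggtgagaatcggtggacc
Mrps21, chr3:95871465-95871764, minus strand: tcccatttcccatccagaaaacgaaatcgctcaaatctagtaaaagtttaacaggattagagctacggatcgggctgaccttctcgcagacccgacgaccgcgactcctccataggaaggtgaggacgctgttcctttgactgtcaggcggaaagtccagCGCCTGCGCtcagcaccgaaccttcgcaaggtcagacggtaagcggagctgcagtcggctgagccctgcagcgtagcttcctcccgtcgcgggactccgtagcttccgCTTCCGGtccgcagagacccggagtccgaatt
Mrps26, chr2:130563507-130563806, plus strand: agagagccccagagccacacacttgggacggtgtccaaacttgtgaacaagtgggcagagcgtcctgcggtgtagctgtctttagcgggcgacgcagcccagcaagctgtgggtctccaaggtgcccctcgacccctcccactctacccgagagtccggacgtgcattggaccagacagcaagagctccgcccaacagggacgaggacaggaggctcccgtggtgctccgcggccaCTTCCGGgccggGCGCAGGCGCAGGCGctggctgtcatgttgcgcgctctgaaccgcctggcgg

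Mitochondrial ribosomal protein genes were mostly lower in Suz12 cKO macrophages. Of the 48 tested large subunit genes 28 fell and none was called higher, and of the 29 small subunit genes 11 fell and none was called higher (edgeR's quasi-likelihood test, Benjamini-Hochberg over all 12840 tested genes, threshold 0.05). Over all tested genes 11.0% were called lower and 8.97% higher. The median log2 fold change was -0.41 over the large subunit genes and -0.30 over the small subunit genes, against 0.04 over all tested genes. Fold changes ran from -1.17 (Mrpl14) to 0.32 (Mrps27), 69 members had a negative and 8 a positive value, and the calls were 58.3% of the large and 37.9% of the small subunit genes. In 28 members, 18 of the large and 10 of the small subunit, every Suz12 cKO library was below every wild type library, which was the case for 9.87% of all tested genes. No member had every Suz12 cKO library above every wild type library, against 10.9% of all tested genes. At an unadjusted p under 0.05 none was higher either, and DESeq2 called the same 39 lower and none higher. With scaling by total counts alone 29 members were lower and none higher, while the median of all genes moved up to 0.15 and 65.9% of all called genes were higher, against 45.0% with the TMM scaling used here. In such bulk samples, fewer cells of a type and less RNA per cell cannot be told apart.

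**Figure D1:**
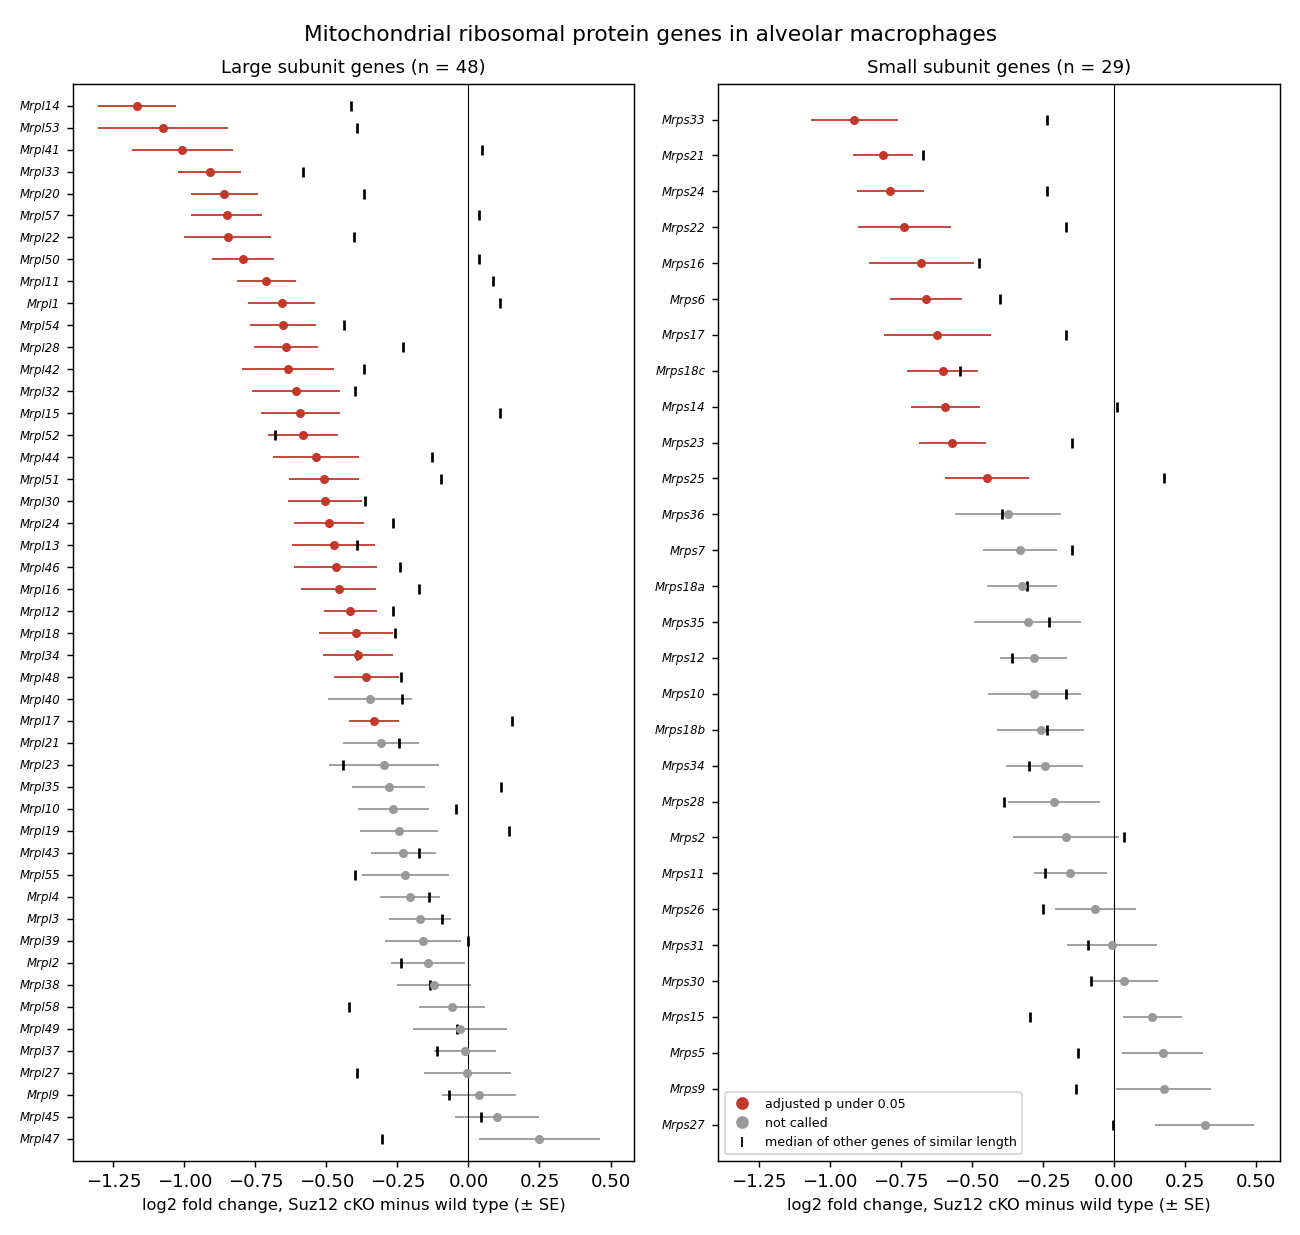
Log2 fold change of Suz12 cKO over wild type (± SE) for each tested member, large subunit left and small subunit right, with red points for an adjusted p under 0.05 and a black tick for the median of other tested genes within 10% of the member's length. The points run from -1.17 for Mrpl14 to 0.32 for Mrps27, with red points in 28 large and 11 small subunit genes, and most ticks are also left of 0.

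Much of this difference was shared by other genes of the same length. Genes of similar length had a median log2 fold change of -0.24 around both subunits, and 24.6% of them around the large and 26.3% around the small subunit genes were called lower. Large subunit genes lay a median of 0.18 below their genes of similar length (difference -0.18, 35 of 48 below), and small subunit genes a median of 0.06 below theirs (difference -0.06, 17 of 29 below). Without wild type library 2 the median difference of the small subunit genes was 0.02, so that its direction rests on that library. It was also 0.01 when the genes of similar length were held to a similar abundance (mean log2 CPM within 1), where the large subunit genes had a median difference of -0.08. When the dependence on length was removed library by library before the edgeR test, 13 large and 6 small subunit genes were called lower and 1 small subunit gene, Mrps15, was called higher, against 8.44% lower and 7.52% higher over all genes. All 19 lower calls were among the 39 made without that correction. The median log2 fold change was then -0.13 over the large and -0.02 over the small subunit genes. Mrps15, a small subunit protein with a bacterial homologue, had 71.1, 58.2, 74.0, 65.6 and 65.0 CPM in Suz12 cKO and 52.2, 58.7, 67.1 and 65.4 CPM in wild type. Its groups overlapped, and it stood at 0.14 (SE 0.10, adjusted p = 0.408 by edgeR) as counted and 0.45 (SE 0.09, adjusted p = 0.00472) with the correction for length.

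Among the large subunit genes, Mrpl14 (Entrez Gene 68463, chromosome 17, 45685722 to 45698495 of GRCm38.p6) had the smallest p. Its protein lies at the interface with the small subunit. It had 35.5, 27.6, 40.9, 37.0 and 29.8 CPM in the Suz12 cKO libraries and 67.1, 65.6, 85.0 and 88.9 CPM in the wild type libraries. Every Suz12 cKO library was below every wild type library, and the log2 fold change was -1.17, SE 0.14, with an adjusted p of 1.19e-04, or -0.68 with the correction for length (adjusted p = 7.19e-04). Mrpl33 (Entrez Gene 66845, chromosome 5, 31613951 to 31622644), a very short protein with a bacterial homologue, had 80.1, 74.0, 79.3, 82.8 and 69.7 CPM in Suz12 cKO and 141, 111, 169 and 160.3 CPM in wild type. The groups again stood apart (-0.91, SE 0.11, with an adjusted p of 1.48e-04). Genes of its length had a median log2 fold change of -0.58, and with the correction for length Mrpl33 stood at -0.32 (adjusted p = 0.00782 by edgeR). Mrpl33 was the most abundant member per length, with 166 ± 11.3 CPM per kilobase of gene length (RPKM) (SD, n = 5) in Suz12 cKO and 312 ± 54.9 RPKM (SD, n = 4) in wild type. A near-identical copy of its sequence is annotated as another gene, so the count of Mrpl33 is uncertain.

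Mrpl50 (Entrez Gene 28028, chromosome 4, 49512597 to 49521083), a protein of mitochondrial ribosomes only, had 27.6, 28.1, 26.9, 33.9 and 33.4 CPM in Suz12 cKO and 54.6, 50.9, 53.3 and 49.2 CPM in wild type. The narrow ranges were well separated, with a log2 fold change of -0.80, SE 0.11, with an adjusted p of 2.52e-04. It is also a long gene of 2103 bases, and genes of that length had a median of 0.04. Mrpl20 (Entrez Gene 66448, chromosome 4, 155802878 to 155808831), whose bacterial homologue binds ribosomal RNA early in assembly, had 44.2, 44.3, 59.3, 55.6 and 43.3 CPM in Suz12 cKO and 92.0, 77.1, 101 and 88.6 CPM in wild type. No library of one group entered the range of the other (-0.86, SE 0.12, with an adjusted p of 2.55e-04). With the correction for length it stood at -0.41 (adjusted p = 0.00444 by edgeR). Over all 9 libraries Mrpl20 was second among large subunit genes in mean level per length, at 74.2 ± 11.3 RPKM (SD, n = 5) in Suz12 cKO and 135 ± 14.6 RPKM (SD, n = 4) in wild type.

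Mrpl12, the protein of the flexible stalk that recruits translation factors and which also binds the mitochondrial RNA polymerase in human cells, had 47.1, 49.0, 57.2, 56.4 and 52.6 CPM in Suz12 cKO and 76.6, 67.1, 67.0 and 69.1 CPM in wild type. It was lower in each Suz12 cKO library (-0.42, SE 0.09, with an adjusted p of 0.00660), but with the correction for length it stood at -0.11 (adjusted p = 0.470). The 2 least abundant tested large subunit genes per length were Mrpl19, at 5.27 ± 0.206 RPKM (SD, n = 5) in Suz12 cKO and 6.24 ± 1.24 RPKM (SD, n = 4) in wild type, and Mrpl35, at 6.23 ± 0.318 RPKM (SD, n = 5) in Suz12 cKO and 7.58 ± 1.19 RPKM (SD, n = 4) in wild type. Mrpl19, which lies where the subunits meet, had 25.4, 25.7, 26.0, 27.6 and 27.5 CPM in Suz12 cKO and 37.9, 23.0, 33.1 and 31.4 CPM in wild type. The value of wild type library 2 was below all Suz12 cKO values, and the difference was not called (-0.25, SE 0.14, with an adjusted p of 0.245), though without that library the adjusted p was 0.0319 (log2 fold change -0.37). Mrpl35, a small protein with a bacterial homologue, had 23.8, 22.0, 22.1, 24.7 and 22.7 CPM in Suz12 cKO and 23.6, 24.95, 31.6 and 31.9 CPM in wild type, which overlapped (-0.28, SE 0.13, with an adjusted p of 0.147).

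**Figure D2:**
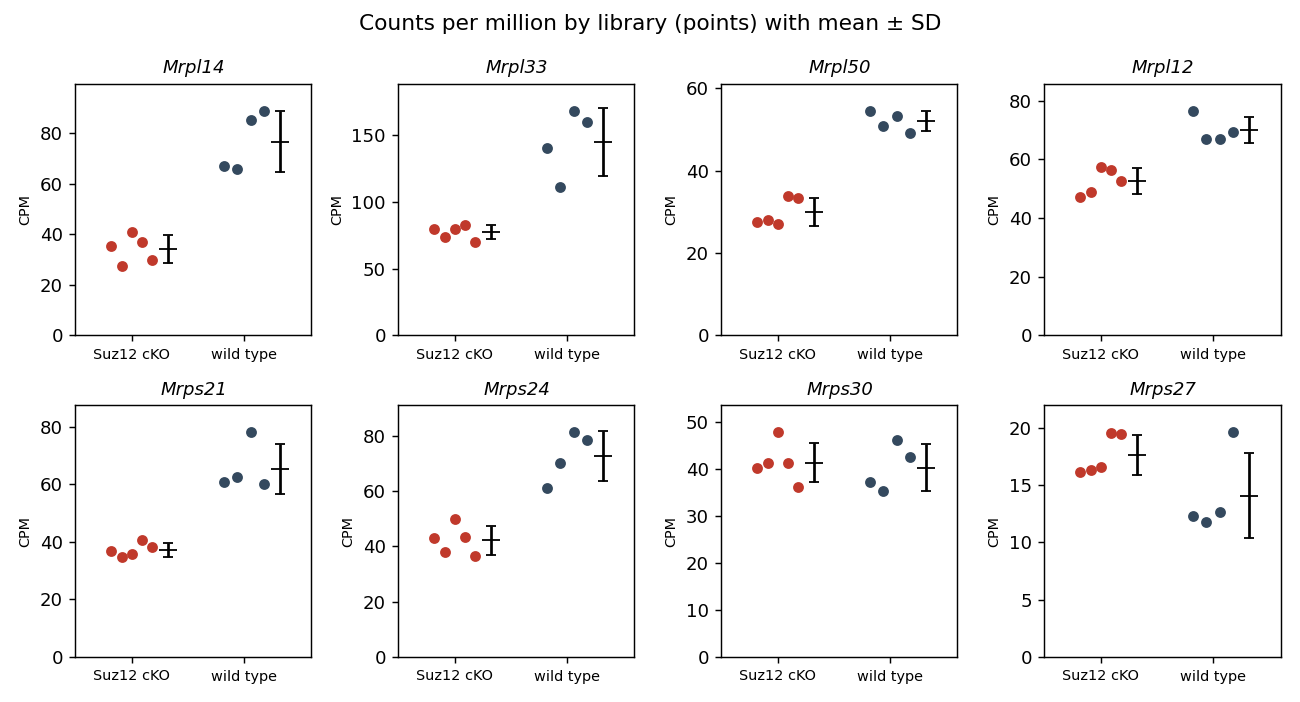
CPM in each library (points, Suz12 cKO left and wild type right in each panel, with mean ± SD) for 4 large and 4 small subunit members, the axes starting at 0. Mrpl14, Mrpl33, Mrpl50, Mrpl12, Mrps21 and Mrps24 do not overlap between the groups, Mrps30 overlaps widely, and in Mrps27 wild type library 4 (19.6 CPM) lies with the Suz12 cKO libraries.

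Several large subunit genes outside the rule for named genes also had well-separated groups and were picked after their values were seen. Mrpl11, part of the base of the stalk, averaged 36.9 ± 3.90 CPM (SD, n = 5) in Suz12 cKO and 60.3 ± 3.60 CPM (SD, n = 4) in wild type. Mrpl57, found only in mitochondrial ribosomes, averaged 33.1 ± 4.13 CPM (SD, n = 5) in Suz12 cKO and 59.6 ± 8.36 CPM (SD, n = 4) in wild type. Mrpl41, likewise found only in mitochondrial ribosomes, averaged 28.2 ± 2.70 CPM (SD, n = 5) in Suz12 cKO and 56.8 ± 18.4 CPM (SD, n = 4) in wild type. All 3 were without overlap and were called by edgeR (adjusted p = 3.72e-04, 3.86e-04 and 0.00143), although Mrpl41 has a near-identical copy annotated as another gene. Large subunit genes at the other end included Mrpl45, which tethers the ribosome to the inner membrane and had a log2 fold change of 0.10, SE 0.15, with an adjusted p of 0.694. Mrpl58, a peptide release factor that became a part of the large subunit, had -0.06, SE 0.12, with an adjusted p of 0.777, and Mrpl47, beside the exit tunnel, had the highest value of the large subunit at 0.25, SE 0.21, with an adjusted p of 0.460.

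Among the small subunit genes, Mrps21 (Entrez Gene 66292, chromosome 3, 95862634 to 95871514) had the smallest p. It encodes a short protein with a bacterial homologue. It had 36.7, 34.6, 35.6, 40.7 and 38.3 CPM in Suz12 cKO and 60.7, 62.5, 78.1 and 60.2 CPM in wild type. The groups stood apart (-0.81, SE 0.11, with an adjusted p of 1.96e-04), with wild type library 3 the highest by far. Genes of its length had a median log2 fold change of -0.67, and with the correction for length Mrps21 stood at -0.19 (adjusted p = 0.250 by edgeR). Per length it was the most abundant small subunit gene, at 91.3 ± 5.88 RPKM (SD, n = 5) in Suz12 cKO and 161 ± 21.0 RPKM (SD, n = 4) in wild type. A near-identical copy annotated as another gene makes its count uncertain.

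Mrps24 (Entrez Gene 64660, chromosome 11, 5703982 to 5707701), the counterpart of a bacterial protein at the entry of the messenger RNA channel, had 42.9, 38.0, 49.9, 43.4 and 36.5 CPM in Suz12 cKO and 61.0, 70.2, 81.3 and 78.5 CPM in wild type. The groups did not overlap (-0.79, SE 0.12, with an adjusted p of 4.29e-04), and the call held with the correction for length (-0.50, adjusted p = 0.00412). Mrps33 (Entrez Gene 14548, chromosome 6, 39801804 to 39810936), a protein found only in mitochondrial ribosomes, had 13.2, 12.9, 13.0, 14.6 and 12.9 CPM in Suz12 cKO and 21.8, 19.4, 31.5 and 27.7 CPM in wild type. Here too every Suz12 cKO library was lower (-0.91, SE 0.15, with an adjusted p of 9.55e-04), and the value with the correction for length was -0.63 (adjusted p = 0.00621). Mrps6 (Entrez Gene 121022, chromosome 16, 92058336 to 92112227), whose bacterial homologue pairs with that of Mrps18c, had 27.7, 32.2, 28.8, 34.4 and 31.5 CPM in Suz12 cKO and 59.6, 39.8, 50.3 and 45.7 CPM in wild type. The groups stood apart (-0.66, SE 0.13, with an adjusted p of 0.00240), but the call was lost with the correction for length (-0.27, adjusted p = 0.156). Mrps33 and Mrps6 also have near-identical copies.

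Mrps12, the protein next to the decoding centre that sets the accuracy of translation, had 29.5, 23.5, 31.1, 32.8 and 29.99 CPM in Suz12 cKO and 33.4, 36.8, 34.7 and 37.9 CPM in wild type. Although its groups did not overlap, edgeR did not call it (-0.28, SE 0.12, with an adjusted p of 0.113). Mrps25, found only in mitochondrial ribosomes and the least abundant tested member per length at 4.57 ± 0.740 RPKM (SD, n = 5) in Suz12 cKO and 6.23 ± 1.06 RPKM (SD, n = 4) in wild type, had 29.8, 26.0, 23.1, 34.6 and 25.4 CPM in Suz12 cKO and 34.3, 30.6, 43.6 and 42.9 CPM in wild type. The groups overlapped through Suz12 cKO library 4, and the call (-0.45, SE 0.15, with an adjusted p of 0.0469) was lost on leaving out any library but Suz12 cKO library 4 or wild type library 2 (adjusted p = 0.0623 to 0.137). Mrps27, a protein with pentatricopeptide repeats, had 16.2, 16.3, 16.6, 19.6 and 19.5 CPM in Suz12 cKO and 12.3, 11.8, 12.6 and 19.6 CPM in wild type. It had the highest fold change of all members but was not called (0.32, SE 0.17, with an adjusted p of 0.227), with wild type library 4 level with the highest Suz12 cKO library. With that library left out Mrps27 stood at 0.53 with an adjusted p of 0.0298 by edgeR, the only higher call of a member under any omission of a library.

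The Mrps18 genes encode 3 paralogs with different places in the ribosome. Mrps18c, in the place of the bacterial protein in the small subunit, had 30.4, 27.9, 31.7, 33.5 and 24.8 CPM in Suz12 cKO and 48.3, 48.3, 46.8 and 36.7 CPM in wild type. It fell, without overlap (-0.60, SE 0.13, with an adjusted p of 0.00383), but stood at -0.07 with the correction for length (adjusted p = 0.762). Mrps18b, elsewhere in the small subunit, had 10.5, 11.1, 11.1, 12.6 and 10.5 CPM in Suz12 cKO and 14.6, 13.5, 13.0 and 12.04 CPM in wild type, and Mrps18a, which sits in the large subunit despite its name, had 31.9, 33.8, 34.6, 37.4 and 34.9 CPM in Suz12 cKO and 46.6, 33.2, 49.6 and 43.4 CPM in wild type. Both overlapped between the groups and were not called, with log2 fold changes of -0.26, SE 0.15, with an adjusted p of 0.277 and -0.32, SE 0.12, with an adjusted p of 0.0833. Without wild type library 2, whose Mrps18a value was within the Suz12 cKO range, Mrps18a was called lower (-0.43, adjusted p = 0.00998 by edgeR). Per length Mrps18c was the most abundant of the 3, at 59.1 ± 6.78 RPKM (SD, n = 5) in Suz12 cKO and 89.7 ± 11.1 RPKM (SD, n = 4) in wild type, followed by Mrps18a at 39.9 ± 2.29 RPKM (SD, n = 5) in Suz12 cKO and 49.99 ± 8.24 RPKM (SD, n = 4) in wild type and Mrps18b at 10.6 ± 0.822 RPKM (SD, n = 5) in Suz12 cKO and 12.6 ± 1.02 RPKM (SD, n = 4) in wild type.

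Names and structural places differ for 2 more genes. Mrps30 also belongs to the large subunit and had 40.2, 41.2, 47.9, 41.4 and 36.2 CPM in Suz12 cKO and 37.4, 35.2, 46.2 and 42.6 CPM in wild type, with wide overlap (0.04, SE 0.12, with an adjusted p of 0.861). Mrps36 is a subunit of the oxoglutarate dehydrogenase complex and no ribosomal protein, and it had 8.54, 7.92, 8.68, 10.8 and 10.1 CPM in Suz12 cKO and 11.1, 9.77, 14.9 and 11.99 CPM in wild type, also overlapping (-0.37, SE 0.19, with an adjusted p of 0.186). Its near-identical copies make that count uncertain. With Mrps30 and Mrps18a counted in the large subunit and Mrps36 left out, 28 of 50 large and 11 of 26 small subunit genes were called lower. Of all tested genes 11.0% were called lower, and of genes of similar length 24.6% (large) and 26.1% (small). The median differences from genes of similar length were -0.15 and -0.09. Split by class, 17 of 29 large subunit genes classed as having a bacterial homologue and 11 of 21 classed as specific to mitochondria were lower, with medians of -0.40 and -0.36. In the small subunit these counts were 7 of 16 and 4 of 10, with medians of -0.31 and -0.28. Of genes of similar length 26.0% and 22.7% (large) and 28.7% and 21.9% (small) were called lower. The classes are not a strict split by descent. Mrps18a and Mrps18b were classed as specific to mitochondria, whereas their paralog Mrps18c was classed as having a bacterial homologue.

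The 5 members furthest below genes of their own length, Mrpl41, Mrpl57, Mrpl50, Mrpl11 and Mrpl1, were all of 2000 bases or more, followed by Mrpl14 with 595 bases. The 12 members of 2000 bases or more were Mrpl1, Mrpl11, Mrpl15, Mrpl17, Mrpl19, Mrpl35, Mrpl41, Mrpl45, Mrpl50, Mrpl57, Mrps2 and Mrps25, with deposited lengths of 2079 to 6712 bases, a limit chosen after the values were seen. Of these, 8 were called lower, against 4.64% of the 8305 other tested genes of 2000 to 10000 bases. In 6 every Suz12 cKO library was below every wild type library, against 4.62% of those other genes. The 12 members had a median log2 fold change of -0.52, against 0.11 for those other genes, and 11 of 12 lay below their genes of similar length, by a median of 0.66. All 8 were also called lower with the correction for length, as were 587 of the 8305 other genes. Among members under 1000 bases, 19 of 32 were called lower with a median of -0.45, against 38.6% and -0.42 for 1319 other genes. From 1000 to under 2000 bases 12 of 33 were called with a median of -0.26, against 15.8% and -0.09 for 2935 other genes. The proteins of the long members are as short as those of the others, since their coding lengths were 306 to 1008 bases, so the extra length is not coding sequence. Set against genes of similar coding length instead, the long members lay a median of 0.33 below, again in 11 of 12, and all 77 members lay a median of 0.21 below, in 58 of 77. Of genes of similar coding length, 24.5% around the long members and 25.7% around all members were called lower, a far larger share than the 4.64% by deposited length. The class depends on which length is used, since Mrpl41 has 2423 deposited bases and a principal transcript of 776 bases in GENCODE, while Mrps17 has 1196 and 5061. By principal transcript, also chosen after the values were seen, 25 members had 2000 bases or more. Of these, 13 were called lower and 9 with the correction for length, against 5.10% called lower of 8247 other genes of 2000 to 10000 bases. They lay a median of 0.46 below genes of similar transcript length, in 22 of 25. The 14 that were long by transcript only had 6 lower calls, 2 with the correction for length.

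**Figure D3:**
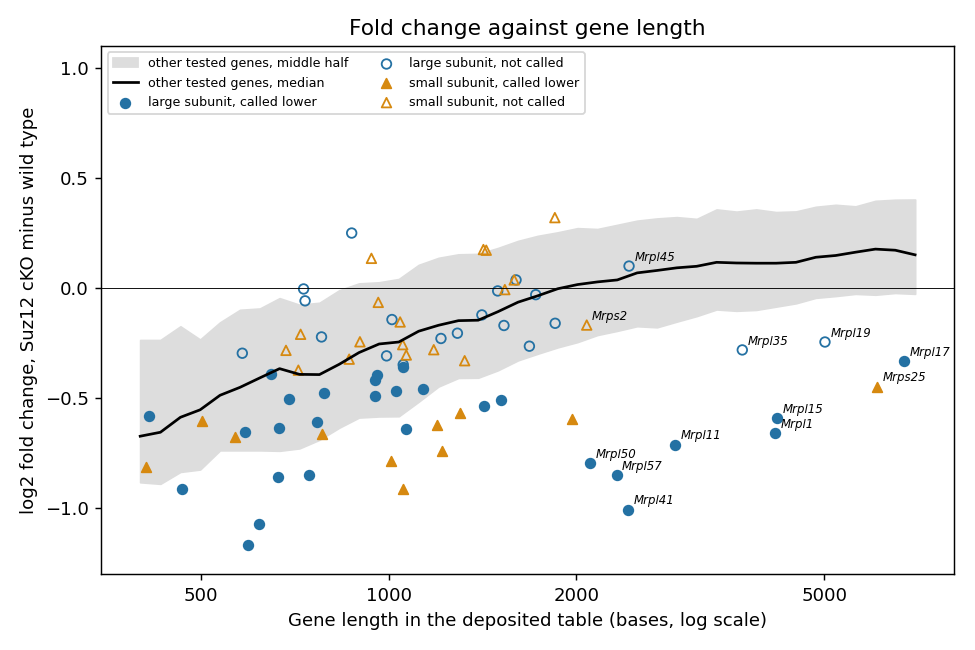
Log2 fold change of Suz12 cKO over wild type against the deposited gene length on a log axis, with circles for large and triangles for small subunit members, filled where called lower, and the median (line) and interquartile range (grey) of other tested genes. Short members lie around the line for genes of their length, while 11 of the 12 members of 2000 bases or more, which are labelled, lie below it.

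Within single libraries the members moved with genes of their length. The median log2 CPM of the large subunit genes, each relative to its mean over the 9 libraries, was -0.20, -0.29, -0.13, -0.04 and -0.21 in the Suz12 cKO libraries and 0.25, -0.04, 0.39 and 0.32 in the wild type libraries. The groups met at Suz12 cKO library 4 and wild type library 2. For genes of similar length the medians were -0.10, -0.16, -0.03, -0.05 and -0.16 in Suz12 cKO and 0.18, 0.02, 0.24 and 0.22 in wild type. The large subunit genes lay above genes of their length in wild type libraries 1, 3 and 4 (0.08, 0.14 and 0.16) and below them in all Suz12 cKO libraries (-0.11, -0.15, -0.11, -0.01 and -0.10) and in wild type library 2 (-0.08). In this difference the groups overlapped, since Suz12 cKO library 4 was above wild type library 2.

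The small subunit genes had medians of -0.22, -0.22, -0.10, -0.01 and -0.19 in Suz12 cKO and 0.12, 0.11, 0.40 and 0.19 in wild type, without overlap. Against genes of similar length they differed by -0.10, -0.09, -0.08, 0.01 and -0.03 in Suz12 cKO and by -0.06, 0.09, 0.12 and -0.07 in wild type, and here too the groups overlapped. Suz12 cKO library 4, the shallowest of its group at 18.6 M counts, was the nearest to wild type in both subunits, and the part of depth in these values was not tested.

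Large subunit genes together took 0.169%, 0.163%, 0.173%, 0.187% and 0.164% of all counts in the Suz12 cKO libraries and 0.221%, 0.193%, 0.228% and 0.229% in the wild type libraries. Small subunit genes took 0.0874%, 0.0851%, 0.0897%, 0.0960% and 0.0870% in Suz12 cKO and 0.103%, 0.10%, 0.113% and 0.105% in wild type. Neither share overlapped between the groups. Summed per length, the large subunit genes stood at 1.80, 1.80, 1.81, 1.84 and 1.76 times the small subunit genes in Suz12 cKO and at 1.99, 1.80, 1.95 and 2.08 times in wild type. The means were 1.80 ± 0.0286 (SD, n = 5) in Suz12 cKO and 1.96 ± 0.117 (SD, n = 4) in wild type, and wild type library 2 lay within the Suz12 cKO range. This ratio follows gene names, so Mrps18a, Mrps30 and Mrps36 count as small subunit genes, and it was not corrected for length. It includes Mrpl33, whose count is uncertain and which averaged 166 RPKM in Suz12 cKO and 312 RPKM in wild type. Counts of the mitochondrially encoded messenger RNAs, the templates of this ribosome, made up 0.966% to 1.77% of all counts in Suz12 cKO and 1.28% to 1.45% in wild type.

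**Figure D4:**
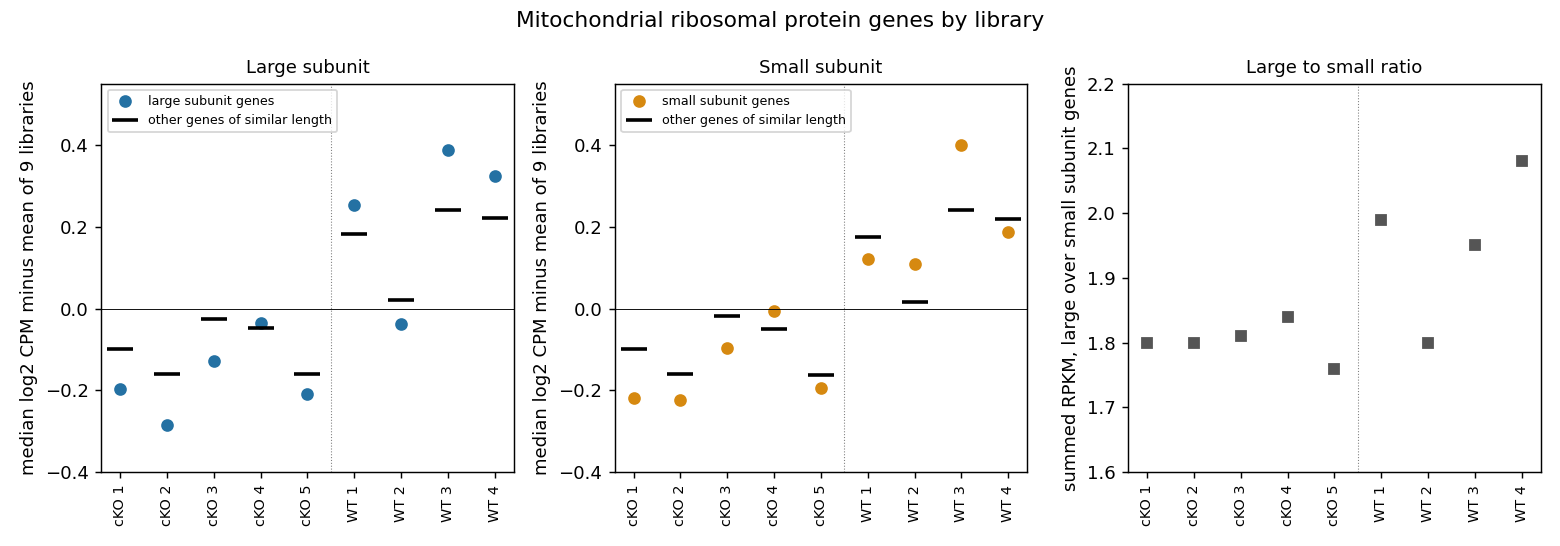
Left and middle, the median log2 CPM of large and of small subunit members in each library relative to each gene's mean over the 9 libraries (points), with the same for other tested genes of similar length (bars). Right, summed RPKM of the large over that of the small subunit genes, from 1.76 to 1.84 in Suz12 cKO and from 1.80 to 2.08 in wild type, on an axis that does not start at 0.

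Other proteins of the same ribosome do not carry an Mrpl or Mrps name. Of 5 such genes, 3 were called lower and none higher, with a median log2 fold change of -0.55. Of all tested genes 11.0% were called lower, and of genes of similar length 15.8%. Chchd1, a small subunit protein, had 23.2, 24.1, 27.5, 28.9 and 26.0 CPM in Suz12 cKO and 44.3, 38.2, 54.9 and 49.5 CPM in wild type, without overlap (-0.85, SE 0.13, with an adjusted p of 4.03e-04). Aurkaip1, also of the small subunit, averaged 78.7 ± 4.72 CPM (SD, n = 5) in Suz12 cKO and 116 ± 18.9 CPM (SD, n = 4) in wild type (-0.55, SE 0.10, with an adjusted p of 0.00213), and Gadd45gip1, of the large subunit near the exit tunnel, averaged 26.9 ± 2.50 CPM (SD, n = 5) in Suz12 cKO and 42.9 ± 7.85 CPM (SD, n = 4) in wild type (-0.67, SE 0.13, with an adjusted p of 0.00306). All 3 were also called with the correction for length. The GTP-binding protein Dap3 and the pentatricopeptide repeat protein Ptcd3, both of the small subunit, were not called by edgeR, with log2 fold changes of 0.16 and 0.08 (adjusted p = 0.226 and 0.756). In Dap3 every Suz12 cKO library (55.71 to 64.67 CPM) was above every wild type library (51.1 to 53.65 CPM), as in 10.9% of all tested genes.

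The factors that build and serve the ribosome were called lower in shares near that of all tested genes. Of 27 assembly genes 3 (11.1%) were called lower and none higher, with a median of -0.18, against 11.0% called lower over all genes. These 3 were the helicase Ddx28 (-0.77, adjusted p = 0.00528), the ribosomal RNA methyltransferase Mrm2 (-0.91, adjusted p = 0.00938), and Malsu1 (-0.74, adjusted p = 0.0267), which binds next to the protein of Mrpl14 and keeps the subunits apart. The call of Malsu1 was lost without Suz12 cKO library 1 or 5 or wild type library 3 or 4 (adjusted p = 0.0620 to 0.104) and with the correction for length (-0.33, adjusted p = 0.260). That of Mrm2 was lost with the replicate number as a block (adjusted p = 0.0724). Of 17 translation factors 2 (11.8%) were called lower, Pdf, which removes the formyl group of new proteins (-0.79, adjusted p = 7.61e-04), and Slirp, which stabilises mitochondrial messenger RNAs (-0.88, adjusted p = 0.00477). With the correction for length Slirp was not called (-0.24, adjusted p = 0.330). The initiation factor Mtif2 was not called (0.42, adjusted p = 0.0926). It was called higher without wild type library 3 (0.57, adjusted p = 0.0193) and with scaling by total counts alone (0.54, adjusted p = 0.0244).

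Of 9 genes of mitochondrial transcription and DNA maintenance 1 (11.1%) was called lower, against 11.0% of all tested genes and 9.22% of genes of similar length. This was the elongation factor Tefm (-1.04, adjusted p = 0.00886). The packaging and transcription factor Tfam (-0.33, adjusted p = 0.0822) and the RNA polymerase Polrmt (-0.27, adjusted p = 0.137) were not. Tfam was called lower without wild type library 3 (-0.43, adjusted p = 0.0133) and with the correction for length (-0.43, adjusted p = 0.0253). None of the 8 tested regulators of nuclear genes for mitochondria was called in either direction by edgeR, against 11.0% lower and 8.97% higher over all tested genes. Of these regulators 0 had an unadjusted p under 0.05, and their median was 0.04. Among them the ETS factor subunit Gabpa had 0.16 (adjusted p = 0.209), Yy1 0.15 (adjusted p = 0.370) and the coactivator Ppargc1b 0.29 (adjusted p = 0.437), and DESeq2 called none of these 3. With edgeR and scaling by total counts alone Gabpa was called higher (0.28, adjusted p = 0.0381). Of the 13 mitochondrially encoded messenger RNAs, 1 (7.69%) was called lower, against 11.0% of all tested genes and 31.2% of genes of similar length. It was that of the complex I subunit ND3 (-0.62, adjusted p = 0.0393), which stood at 0.04 with the correction for length. Its call was also lost without Suz12 cKO library 1, 2 or 5 or wild type library 1, 3 or 4 (adjusted p = 0.0636 to 0.112) and without a filter (adjusted p = 0.0759). The other named ones, ND4 (-0.24, adjusted p = 0.299) and COX3 (-0.21, adjusted p = 0.254), were not called. ND4 was called lower without Suz12 cKO library 5 (-0.38, adjusted p = 0.0450) and with the replicate number as a block (-0.40, adjusted p = 0.0228). COX3 was called lower without Suz12 cKO library 3 (-0.30, adjusted p = 0.0461). With the correction for length none of the 13 was called lower and 2 were called higher, against 8.44% lower and 7.52% higher over all genes. These 2, named after their values were seen, were ATP8 (0.75, adjusted p = 0.0052) and ND6 (0.66, adjusted p = 0.0218). The 13 lay a median of 0.14 above genes of similar length, with 4 of 13 below. All of these p-values came from edgeR.

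Genes of mitochondrial import, folding and proteolysis went both ways, with 4 of 18 called lower and 3 higher. Of all tested genes 11.0% were called lower and 8.97% higher, and of genes of similar length 12.5% and 7.71%. The 18 genes had a median log2 fold change of 0.05. Among those named by the rule, the cochaperonin Hspe1 (-0.99, adjusted p = 1.89e-04) and the import receptor Tomm22 (-0.68, adjusted p = 6.50e-04) fell, and Hspa9, the chaperone of the import motor, rose (0.51, adjusted p = 7.42e-04 by edgeR). The others called, named after their values were seen, were the outer membrane import genes Tomm20 (-0.52) and Tomm70a (0.47), the inner membrane channel gene Timm23 (-0.67) and the protease subunit Clpx (0.46). Timm23 was not called with the correction for length (-0.43, adjusted p = 0.0571). The cytosolic ribosomal protein genes, which make the ribosome that translates all nuclear genes, are shorter, with a median length of 693.5 bases against 1055 for the tested members. Of these cytosolic genes 64 of 76 tested were called lower and none higher, and 35.2% of genes of similar length were called lower. The median log2 fold change of the cytosolic genes was -0.63. They lay a median of 0.25 below genes of similar length, in 64 of 76, and 33 were called lower and 4 higher with the correction for length.

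Counts of some members are uncertain for reasons of position or sequence. The annotated spans of 22 members, 11 of them called, overlap another counted gene, and because the sources used here do not give the strand setting of the counting, reads in an overlap cannot be assigned. Mrpl44 was called lower (-0.54, adjusted p = 0.0231 by edgeR), but not with the correction for length (-0.38, adjusted p = 0.112). It overlaps Wdfy1, an endosomal protein gene singled out after its values were seen, which averaged 7.71 ± 1.47 CPM (SD, n = 5) in Suz12 cKO and 42.7 ± 1.35 CPM (SD, n = 4) in wild type. Mrpl14 overlaps Tmem63b, which was not called (0.44, adjusted p = 0.0844) and had the opposite sign. An annotated near-identical copy (at least 97% identity over 80% of the coding length) exists for 15 members, 10 of them called, among them Mrpl22, Mrpl33, Mrpl41, Mrpl53, Mrps6, Mrps21 and Mrps33. The positions of copies that are not among the counted genes were not compared with those of the members. Across omission of each library in turn, 27 members, 19 large and 8 small, were called lower every time. Those called lower in every alternative fit as well, with the correction for length and with the replicate number as a block included, were 17 members. They were Mrpl1, Mrpl11, Mrpl14, Mrpl15, Mrpl20, Mrpl22, Mrpl28, Mrpl33, Mrpl41, Mrpl50, Mrpl51 and Mrpl57 of the large subunit, and Mrps14, Mrps22, Mrps23, Mrps24 and Mrps33 of the small subunit. How many of all tested genes stayed lower through the same fits was not counted, so the 27 and the 17 cannot be set against a share of all genes.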

How the data were processed

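Whole-number read counts per gene, with Entrez identifier and gene length, were deposited by the authors in 1 joint table and in 9 single tables equal to it. They were made with featureCounts on mm10, per the submitters' processing notes. The sources used here do not give the aligner, the annotation release or the strand setting. Reads were single reads of 85 bases, per the labels. Symbols and coordinates came from RefSeq GRCm38.p6, which gave a symbol to 25275 of 27179 identifiers, and the 1904 without one stayed in the fit.

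The members, lists, named-gene rule and alternatives were chosen with earlier results of these data known. The rule named, in each subunit, the 4 smallest p and the 2 highest and 2 lowest levels per length, and the Mrps18 paralogs, Mrps30, Mrps36, Mrpl12 and Mrps12, any member called higher, and up to 3 genes by p in each other list. Suz12 cKO was compared with wild type over all 9 libraries and all genes in R 4.3.3 with edgeR 4.0.16 (robust quasi-likelihood fit, TMM scaling, filterByExpr, no covariate), with Benjamini-Hochberg adjustment over 12840 genes and a threshold of 0.05. Alternatives used DESeq2 1.42.0, limma 3.58.1 (loaded by edgeR), other scalings and filters, and omission of each library. CPM used TMM-scaled totals, and RPKM is CPM per 1000 bases of deposited length. Genes of similar length were other tested genes within 10% of a member's length. The correction for length was a robust loess curve (span 0.5) per library of log2 CPM deviations (prior count 2) on log2 length, entered as an offset. Coding lengths came from GENCODE vM21 and covered 91.1% of tested genes and all members. Totals of 13.8 to 45.6 M (1e6) counts put every tested member above 1 CPM in every library. The main edgeR fit was tested on simulated counts without a dependence on length. The correction for length and the comparison with genes of similar length were not tested in this way.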

Additional observations from a re-analysis of the deposited data

Results flagged for a closer look

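In 112 groups of 4 or 5 libraries examined, 6 held a library far from the others, and chance alone marks about 5% of such groups. Suz12 cKO library 4 stood above the rest of its group in Mrps18b (12.6 CPM, against 10.5 to 11.1 CPM), in Mrps33 (14.6 CPM, against 12.9 to 13.2 CPM) and in the number of large subunit genes above genes of similar length (23, against 9 to 13). In wild type, Mrps21 was high in library 3 (78.1 CPM, against 60.2 to 62.5 CPM), Mrps27 was high in library 4 (19.6 CPM, against 11.8 to 12.6 CPM) and Mrps18c was low in library 4 (36.7 CPM, against 46.8 to 48.3 CPM).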

How the results depend on the processing

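RLE scaling, DESeq2 and the stricter filter kept all 39 lower calls and added no higher one. With scaling by total counts alone the median log2 fold change of the small subunit genes was -0.18. Without a filter (18406 genes) the median differences from genes of similar length were -0.36 (large) and -0.29 (small), and the cause was not tested. With the length offset 13 large and 6 small subunit genes were lower and 1 small subunit gene was higher, with medians of -0.13 and -0.024, and ND3 turned to 0.042, COX3 to 0.185, Mrps12 to 0.141, Mrps18a to 0.037, Mrps18b to 0.012 and Mrps36 to 0.057, of which ND3 alone had been called. With length and abundance matched, the median differences were -0.075 (large) and 0.012 (small). With coding length in place of deposited length, chosen after seeing the data, the small subunit value was -0.15, and with the class of 2000 bases or more set by principal transcript, also chosen after seeing the data, 13 of 25 members were lower.

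Leaving out each library gave 20 to 29 large and 9 to 12 small subunit genes lower, 0 large and 0 to 1 small subunit genes higher, medians of -0.47 to -0.36 (large) and -0.36 to -0.26 (small), median differences of -0.21 to -0.15 (large) and -0.083 to 0.022 (small), 7 to 9 long members lower, and -2.19 to -1.97 for Suz12. The positive small subunit difference was 0.022 without wild type library 2, and the higher call came without wild type library 4.

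Same-numbered libraries had correlations of deviations from their group means of 0.04, 0.03, -0.06 and 0.12. Libraries with different numbers were not compared, so whether the numbers pair the libraries cannot be told. With the replicate number as a block 30 members were lower (21 large and 9 small), all among the 39. Of 640 values of 40 named genes under these settings, 592 kept their direction and side of the threshold, 29 lost the call, 11 gained one and 8 changed sign, among them Mrps30, which was not called (-0.013 without Suz12 cKO library 3 and -0.02 without wild type library 2). Mrpl36, under 1 CPM in all libraries but wild type library 3, was not tested.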
